A study of Mus musculus with 6 samples.

Results

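The Myc, Max and Mxd network is a set of transcription factors that pair through a shared helix-loop-helix and leucine zipper region. Its 10 genes were taken by symbol from a table of 53927 gene symbols, and all 10 were present and passed the filter on low counts, which left 20422 genes for testing. RNA-seq was done on mouse embryonic stem cells (ESCs) labelled as wild type, with 3 libraries from BRD0705/PD03 medium and 3 from 2i medium. BRD0705/PD03 was serum-free N2B27 medium with 8 µM of BRD0705, which inhibits GSK3 alpha in preference to its paralog, and 1 µM of the MEK inhibitor PD0325901. The 2i medium was N2B27 with CHIR-99021, which inhibits both forms of GSK3, at 3 µM and the same 1 µM of PD0325901, so MEK inhibition was common to both groups. The comparison asks how RNA of the network differs between ESCs kept with the GSK3 alpha inhibitor and ESCs kept in 2i. The groups also differed in Y-linked RNA, as given below, so medium was not the only difference between them.

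Myc proteins bind DNA as dimers with Max, mostly at the E-box CACGTG, and raise transcription of genes for growth, ribosome production and metabolism. Mxd proteins and Mnt take Max in place of Myc and bring the Sin3 and histone deacetylase corepressors to the same sites, and Mga pairs with Max inside a Polycomb complex, PRC1.6, that holds germline genes down in ESCs. In mouse ESCs Myc and Mycn are known to sustain self-renewal and proliferation. GSK3 is known to phosphorylate the Myc protein and mark it for destruction through the ubiquitin ligase Fbxw7, a step that RNA counts do not measure.

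Promoters of 4 genes are shown, chosen from those that hold the motifs described here or belong to the paralogs that differed most. RefSeq promoters on GRCm38.p6 span 250 bases before and 50 after a start, and 9 of the 10 genes were in the table, with 11 promoters, the exception being Myc. The motifs searched on both strands were the E-box CACGTG, the E2F-type site TTTGGCGC, the TCF/LEF-type site CTTTGAT and the STAT-type site TTCCNGGAA, and matches are in capitals. Mycn (chr12:12941787-12942086, minus strand), Mycl (chr4:122995681-122995980, plus strand), Max (chr12:76962199-76962498, minus strand) and Mxd4 (chr5:34187661-34187960, minus strand) read as follows, 5′ to 3′.
Mycn: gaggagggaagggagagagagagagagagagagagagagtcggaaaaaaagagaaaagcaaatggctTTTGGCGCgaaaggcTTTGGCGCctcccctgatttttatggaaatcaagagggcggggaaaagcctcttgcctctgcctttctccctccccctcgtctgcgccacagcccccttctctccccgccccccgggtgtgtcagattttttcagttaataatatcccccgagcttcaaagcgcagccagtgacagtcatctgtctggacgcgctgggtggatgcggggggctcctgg
Mycl: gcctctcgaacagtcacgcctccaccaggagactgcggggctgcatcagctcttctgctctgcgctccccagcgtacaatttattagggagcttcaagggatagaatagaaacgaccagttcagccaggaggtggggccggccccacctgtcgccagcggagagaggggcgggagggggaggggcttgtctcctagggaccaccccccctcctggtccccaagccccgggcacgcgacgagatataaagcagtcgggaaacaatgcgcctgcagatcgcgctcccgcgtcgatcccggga
Max: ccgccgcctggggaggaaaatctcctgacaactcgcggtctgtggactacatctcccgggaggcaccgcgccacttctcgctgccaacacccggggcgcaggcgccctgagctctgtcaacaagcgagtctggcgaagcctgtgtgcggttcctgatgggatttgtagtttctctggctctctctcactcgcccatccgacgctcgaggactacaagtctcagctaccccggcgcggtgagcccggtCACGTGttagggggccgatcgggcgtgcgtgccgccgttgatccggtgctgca
Mxd4: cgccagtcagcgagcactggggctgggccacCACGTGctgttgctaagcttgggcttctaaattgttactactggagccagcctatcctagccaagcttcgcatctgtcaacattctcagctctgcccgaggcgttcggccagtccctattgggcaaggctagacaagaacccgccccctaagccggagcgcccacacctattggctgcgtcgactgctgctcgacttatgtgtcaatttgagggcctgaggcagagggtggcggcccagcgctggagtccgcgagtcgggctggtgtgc
The E-box, which is its own reverse complement, was found in the promoters of Max, starting 3 bases before the start, of Mxd4, 219 bases before it, and of Mnt (chr11:74830674-74830973, plus strand), 123 bases before it. Of all 32851 promoters in the table, 7.15% held an E-box. The Mycn promoter held the E2F-type site at 2 places, 183 and 168 bases before the start, and 0.514% of all promoters held at least 1. The TCF/LEF-type string CTTTGAT, present in 3.73% of all promoters, and the STAT-type string TTCCNGGAA, present in 1.15%, were in none of the 11 windows searched here. Other forms of these sites were not searched, so the windows may hold some. A match is a description of letters and not evidence of binding.

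Libraries of BRD0705/PD03 held 27825601 to 40790837 counts and those of 2i held 16968959 to 51180228 counts. The labels name the line E14, which is known to be male, whereas the culture notes speak of lines derived from B6D2F1 mice, on feeders and in each medium separately. The summed level of the Y-linked genes Ddx3y, Eif2s3y and Uty was 303 to 325 CPM, counts scaled to a common library size, in BRD0705/PD03, against 6.36 to 7.54 CPM in 2i, and of 717 X-linked genes tested 106 were higher and 473 lower in BRD0705/PD03, with a median log2 fold change of -0.78. None of the 10 network genes lies on a sex chromosome, but the cells of the 2 media cannot be told apart from the media as a source of difference. The 10 ESC markers listed were detected in every library, with sums of 3198 to 3289 CPM in BRD0705/PD03 and 3561 to 3817 CPM in 2i. The sums hide shifts both ways, as 4 were higher and 5 lower, with log2 fold changes from -1.09 to 3.44. That is 90% called, against 61.4% of all genes tested. The 15 fibroblast markers summed to 884 to 1295 CPM in BRD0705/PD03 and 520 to 535 CPM in 2i, with 0 of 15 at 0 counts in any library. Of these markers 13 of 15 were higher (86.7%), against 30.1% of all genes tested, with a median log2 fold change of 0.93. The 10 primitive endoderm markers summed to 345 to 435 CPM in BRD0705/PD03 and 550 to 567 CPM in 2i, and 0 of 10 were at 0 counts in any library. Of the 9 tested, 4 were higher (Foxa2, Dab2, Col4a1 and Pdgfra) and 3 lower (Lama1, Sparc and Gata4), with a median of -0.18. These calls were 77.8% of those tested, against 61.4% of all genes tested. The markers moved both ways: the laminin gene Lama1 was at 25.2 ± 0.613 against 158.8 ± 12.8 CPM (-2.65 ± 0.06). The collagen gene Col4a1 was at 88.6 ± 13.7 against 46.7 ± 0.721 CPM (0.93 ± 0.12). The part of these differences in the results on the network was not tested. In bulk RNA, fewer cells of a type and less RNA per cell cannot be told apart.

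BRD0705/PD03 libraries held more Mycn, Myc and Mxd4 RNA and less Mycl and Mxi1 RNA, while Max, the partner that all of them share, did not pass the test. Mycn stood at 201 ± 6.3 against 110.4 ± 6.0 CPM and Mycl at 12.7 ± 0.445 against 29.9 ± 0.914 CPM (mean ± SD, n = 3 per group). Among the repressors, Mxd4 stood at 12.2 ± 0.798 against 5.0 ± 0.467 CPM and Mxi1 at 17.6 ± 1.12 against 29.8 ± 1.89 CPM. At an adjusted p under 0.05 by edgeR's quasi-likelihood test, with Benjamini-Hochberg adjustment over all 20422 genes, 5 of the 10 genes were higher (Myc, Mycn, Mxd3, Mxd4 and Mnt) and 3 lower (Mycl, Mxi1 and Mga). By the same rule 61.4% of all genes were called, 30.1% as higher and 31.4% as lower, so a count of 8 of 10 is read against a background in which most genes differed. With a change of at least 2-fold required as well, 1 of the 10 was higher (Mxd4) and 1 lower (Mycl), against 10.9% and 10.3% of all genes, or 21.2% in either direction. The median log2 fold change of the 10 was 0.13, against 0.0 over all genes tested. For 8 of the 10 genes, the same 8 that were called, every library of one group lay outside the range of the other group. This was so for 66% of all genes tested, called or not.

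**Figure D1:**
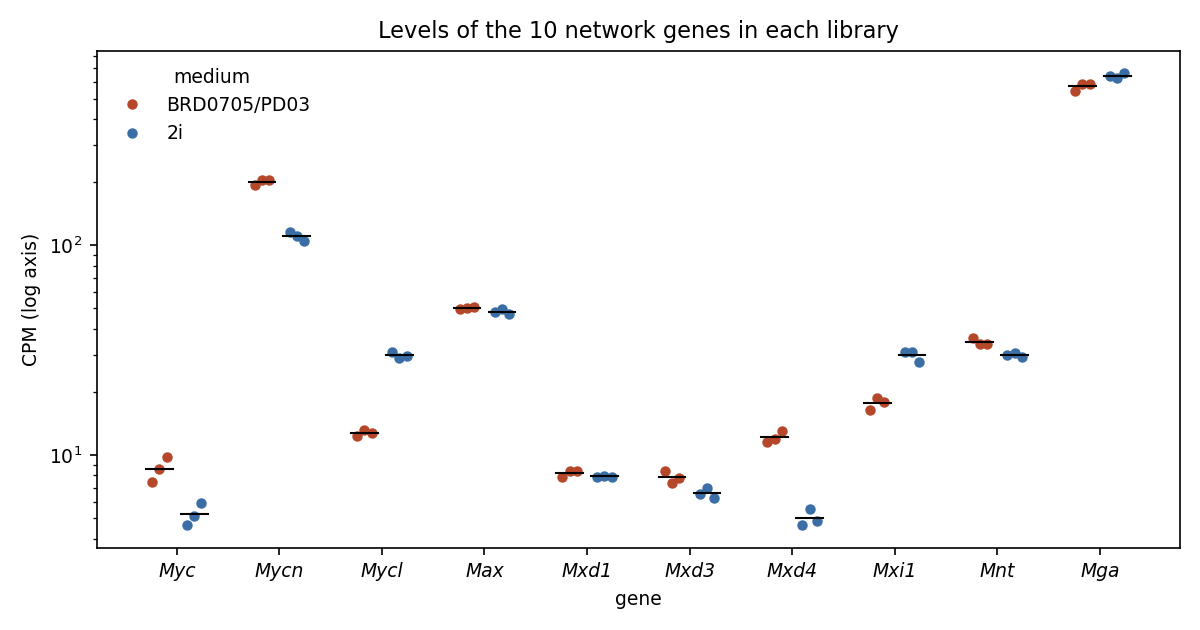
Level of each of the 10 network genes in each library in CPM, on a log axis, with BRD0705/PD03 in red left of 2i in blue. Points are libraries and black lines are group means, and the groups overlap for Max and Mxd1 alone.

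**Figure D2:**
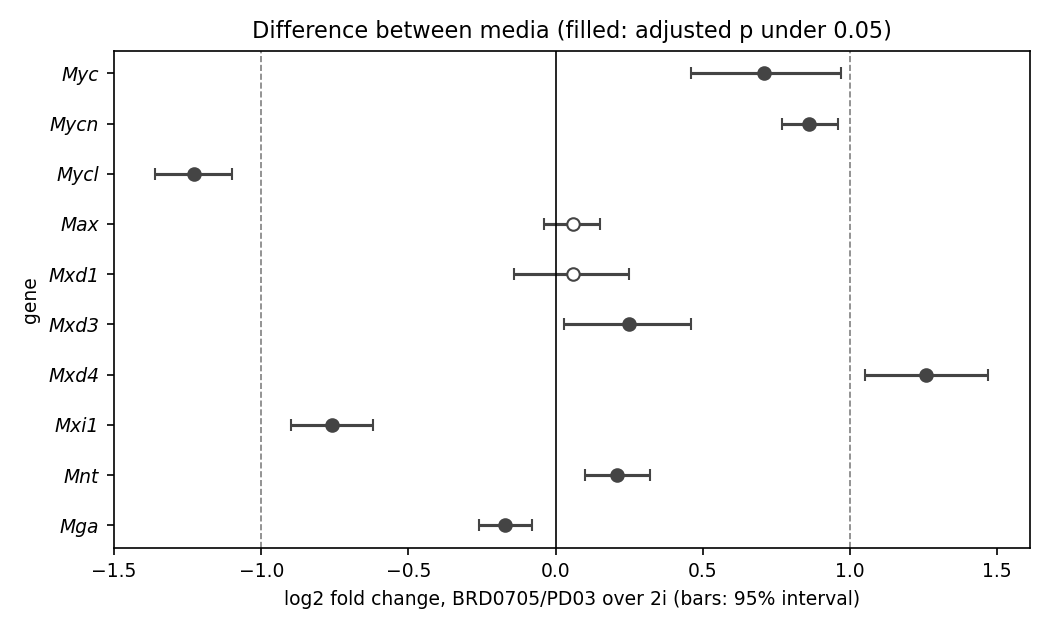
Log2 fold change of BRD0705/PD03 over 2i for each network gene, with 95% intervals from the edgeR fit, filled where the adjusted p was under 0.05 and with dashed lines at a 2-fold change. Mxd4 (1.26) and Mycl (-1.23) are the points beyond the dashed lines.

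Mycn, on chromosome 12 (12936093 to 12941914), encodes the Myc paralog best known from embryonic tissue. Its level was 193, 205 and 204 CPM in the BRD0705/PD03 libraries, against 116, 111 and 104 CPM in the 2i libraries. The lowest BRD0705/PD03 library was well above the highest 2i library. The log2 fold change was 0.86 ± 0.04 (standard error), a fold of 1.82, with an adjusted p of 5.03e-12 from edgeR. A change of this size or smaller was seen in 74.0% of genes tested.

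Myc, on chromosome 15 (61985391 to 61990374), encodes the founding member, a factor downstream of LIF and Wnt signals. It was far less abundant, at 7.43, 8.53 and 9.74 CPM in BRD0705/PD03 and 4.63, 5.11 and 5.92 CPM in 2i. The groups did not overlap, but they lay closer together relative to their spread than those of Mycn. The log2 fold change was 0.71 ± 0.12 with an adjusted p of 4.8e-05 from edgeR, and its interval ran from 0.46 to 0.97. The counts behind it were small, from 78 in the shallowest 2i library to 397. The BRD0705/PD03 library with the most Myc RNA, replicate 3, was also the one with the highest sum of fibroblast markers, at 1295 CPM, and the one with the least, replicate 1, had the lowest sum, at 884 CPM. Mxd4, Max, which was not called, and Mga, which was lower, had the same order over the BRD0705/PD03 libraries. In 2i, replicate 3 had the most Myc RNA and the lowest fibroblast sum, but those sums spanned only 520 to 535 CPM. An order of 3 libraries is given as a description and cannot decide on a source. The part of fibroblast RNA in the differences of Myc and Mxd4 was not tested.

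Mycl, on chromosome 4 (122995652 to 123002485), encodes the third paralog, whose product is known as the weakest of them in cell transformation. It stood at 12.3, 13.2 and 12.7 CPM in BRD0705/PD03 and 30.9, 29.0 and 29.8 CPM in 2i. Its direction was opposite to that of Myc and Mycn in every library. The log2 fold change was -1.23 ± 0.06, a fold of 2.34, with an adjusted p of 4.4e-12 from edgeR. Of the genes tested 83.1% changed by as much or less.

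Ratios of paralogs within a library do not depend on scaling between libraries. The log2 ratio of Mycl to Myc counts was 0.73, 0.63 and 0.38 in BRD0705/PD03, against 2.74, 2.51 and 2.33 in 2i. The difference of the means was -1.95, and the groups lay apart by more than their whole spread. The log2 ratio of Mycn to Myc counts was 4.70, 4.58 and 4.39 in BRD0705/PD03 and 4.65, 4.44 and 4.14 in 2i. Those groups overlapped, with a difference of the means of 0.15.

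Levels of different genes were compared as CPM per kilobase of merged exons. Mycn made up 91.0%, 90.6% and 90.2% of the summed level of Myc, Mycn and Mycl in BRD0705/PD03, against 79.1%, 78.8% and 76.8% in 2i. The share of Mycl was 4.72%, 4.77% and 4.58% in BRD0705/PD03, against 17.1%, 16.8% and 17.9% in 2i. The share of Myc was 4.24% to 5.22% in BRD0705/PD03 and 3.82% to 5.29% in 2i, so it overlapped between media. The sum of the 3 paralogs was 67.2 ± 2.37 CPM per kb in BRD0705/PD03 and 42.8 ± 1.72 CPM per kb in 2i. Bmyc, a Myc-related gene outside the chosen 10 and named after its value was seen, stood without passing the test at 1.82 ± 0.119 against 2.0 ± 0.178 CPM (adjusted p = 0.579, edgeR).

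Max, on chromosome 12 (76937269 to 76962201), encodes the shared partner of Myc, Mxd, Mnt and Mga proteins. It stood at 49.5, 50.05 and 50.9 CPM in BRD0705/PD03 and 48.0, 49.5 and 47.0 CPM in 2i. The groups overlapped. Its log2 fold change was 0.06 ± 0.05 with an interval from -0.04 to 0.15 and an adjusted p of 0.312 from edgeR. With upper-quartile scaling, which moved the median of all genes by 0.07, it was called as higher at 0.12 (adjusted p = 0.0179), and over 13 alternatives its value ran from 0.04 to 0.12.

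The Mxd genes encode short repressors of the network, of which Mxd4 was higher and Mxi1 lower, while Mxd1 did not pass the test and the call of Mxd3 was not stable. Mxd4, on chromosome 5 (34173883 to 34187720), whose product is found mostly in cells that leave the cycle, stood at 11.5, 11.9 and 13.05 CPM in BRD0705/PD03, against 4.63, 5.53 and 4.85 CPM in 2i. Every BRD0705/PD03 library held more than 2 times the level of the highest 2i library. The log2 fold change was 1.26 ± 0.10 with an adjusted p of 2.3e-09 from edgeR. The antisense gene model Gm42846 shares 514 exon bases with Mxd4 and had 48 counts over the BRD0705/PD03 group and 6 over the 2i group, against 1234 and 478 for Mxd4. No source used here states whether counting used strand, so reads in the shared bases cannot be told apart.

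Mxi1, on chromosome 19 (53310518 to 53375810), the paralog also called Mxd2, stood at 16.5, 18.7 and 17.8 CPM in BRD0705/PD03, against 31.0, 30.8 and 27.7 CPM in 2i. The groups were well separated. Its log2 fold change was -0.76 ± 0.07 with an adjusted p of 1.2e-08 from edgeR. RefSeq lists 3 promoters for Mxi1, of which 2 overlap, and counts per gene do not show which of its transcripts differed. The opposite-strand gene Gm10197 shares 194 exon bases with it and was lower too, at 1.16 ± 0.139 against 2.15 ± 0.222 CPM.

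Mxd3, on chromosome 13 (55325168 to 55329823), whose product is known from cells in S phase, stood at 8.41, 7.34 and 7.77 CPM in BRD0705/PD03 and 6.53, 6.94 and 6.27 CPM in 2i. The gap between the groups was narrow. Its log2 fold change was 0.25 ± 0.10 with an adjusted p of 0.0415 from edgeR, and 8 of 13 alternative settings lost that call, with adjusted p up to 0.126 in DESeq2. It shares 105 exon bases with Prelid1 on the other strand, a gene at 163 ± 1.53 against 144 ± 4.48 CPM, so some of its counts may belong to Prelid1. Mxd1, on chromosome 6 (86647042 to 86669161), a repressor that rises as blood cells mature, stood at 7.89, 8.39 and 8.39 CPM in BRD0705/PD03 and 7.89, 7.94 and 7.89 CPM in 2i. These groups overlapped, with a log2 fold change of 0.06 ± 0.09, an interval from -0.14 to 0.25 and an adjusted p of 0.621 from edgeR.

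The 4 Mxd paralogs together overlapped between media while their make-up differed. Their summed level was 8.43, 8.43 and 8.62 CPM per kb in BRD0705/PD03 and 8.97, 9.22 and 8.39 CPM per kb in 2i. The share of Mxi1 in that sum was 28.6% to 32.5% in BRD0705/PD03, against 48.3% to 50.7% in 2i. Mxd4 held 16.1% to 17.9% in BRD0705/PD03, against 6.09% to 7.06% in 2i. Mxd3 held 36.7% to 42.1% in BRD0705/PD03 and 30.7% to 31.8% in 2i. The sum of the Myc paralogs was 7.65, 8.13 and 7.97 times that of the Mxd paralogs in BRD0705/PD03, against 4.98, 4.63 and 4.91 times in 2i, without overlap.

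**Figure D3:**
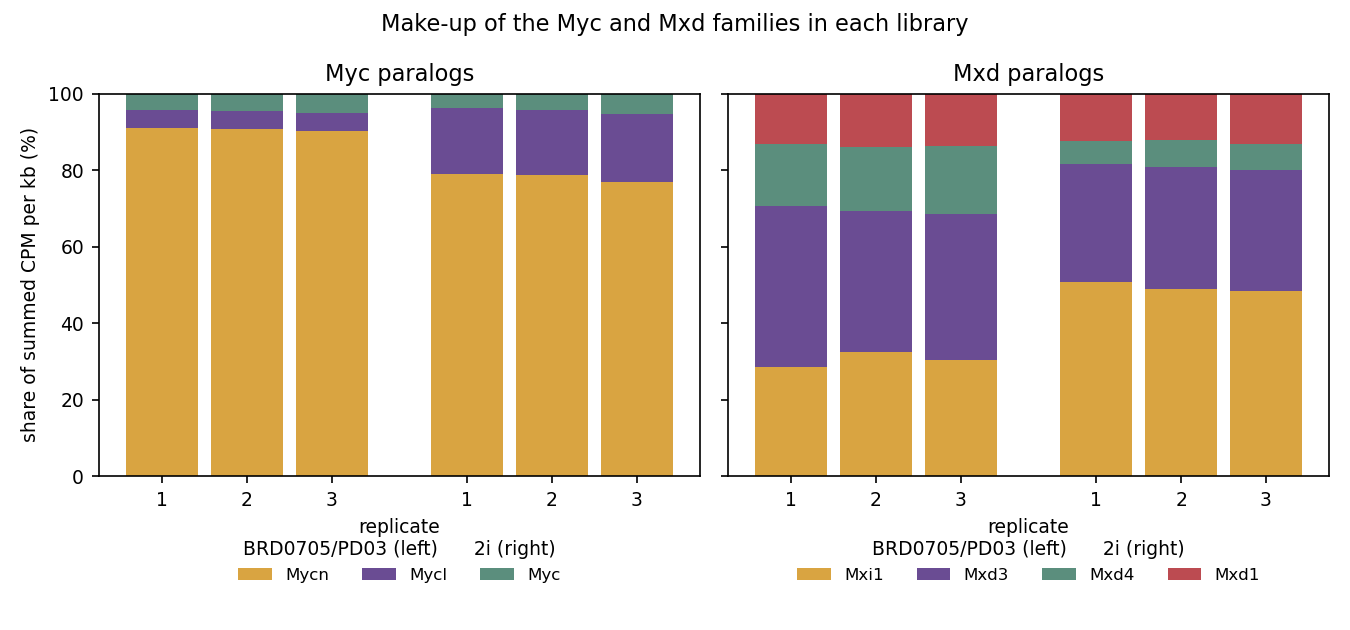
Share of each paralog in the summed CPM per kb of its family in each library, with BRD0705/PD03 bars left of 2i bars, for Myc paralogs in the left panel and Mxd paralogs in the right panel. The Mycl share is 4.58% to 4.77% in BRD0705/PD03 and 16.8% to 17.9% in 2i, and Mxd4 takes a larger and Mxi1 a smaller share in BRD0705/PD03.

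Mnt and Mga, the large repressors, differed by small factors. Mnt, on chromosome 11 (74830920 to 74845725), is expressed in most cells and limits Myc. It stood at 36.2, 33.7 and 34.0 CPM in BRD0705/PD03, against 30.0, 30.5 and 29.2 CPM in 2i. Its log2 fold change was 0.21 ± 0.05 with an adjusted p of 0.00255 from edgeR. Mga, on chromosome 2 (119897228 to 119969581), the scaffold of PRC1.6, stood at 543, 588 and 589 CPM in BRD0705/PD03, against 643, 627 and 659 CPM in 2i. All BRD0705/PD03 libraries were below all 2i libraries. The log2 fold change was -0.17 ± 0.04, a fold of 1.12, with an adjusted p of 0.00255 from edgeR, and it was called in 13 of 13 alternatives with values from -0.18 to -0.10.

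Per kilobase, the order of the 10 genes also differed between media. In BRD0705/PD03 it ran Mycn at 60.9 ± 1.91 CPM per kb, Mga at 37.4 ± 1.70, Max at 13.9 ± 0.207, Mnt at 7.48 ± 0.30, Mxd3 at 3.31 ± 0.228, Myc at 3.15 ± 0.425, Mycl at 3.15 ± 0.11, Mxi1 at 2.59 ± 0.163, Mxd4 at 1.43 ± 0.0941 and Mxd1 at 1.16 ± 0.0408. Mxd3, Myc and Mycl overlapped with each other there, as did Myc and Mxi1. In 2i the order was Mga at 41.9 ± 1.07 CPM per kb, Mycn at 33.5 ± 1.82, Max at 13.4 ± 0.359, Mycl at 7.40 ± 0.226, Mnt at 6.46 ± 0.139, Mxi1 at 4.37 ± 0.277, Mxd3 at 2.78 ± 0.142, Myc at 1.92 ± 0.24, Mxd1 at 1.12 ± 0.00383 and Mxd4 at 0.59 ± 0.055, and no neighbours overlapped. Mycn led in BRD0705/PD03 and Mga in 2i, and Mycl was the seventh in BRD0705/PD03 and the fourth in 2i. With the longest transcript as length, Max was at 25.8 and 24.8 CPM per kb, Mxd1 at 1.76 and 1.69 and Mxd4 at 2.63 and 1.08 in BRD0705/PD03 and 2i, over 1.5 times the values given.

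The Mlx arm is a parallel set of factors that sense glucose and share partners with the Mxd proteins. Its list also held Txnip and Arrdc4, which do not encode such factors. Of 5 genes in this list 0 were higher and 1 was lower, with a median log2 fold change of 0.01 against 0.0 over all genes. The share called was 20%, against 61.4% of all genes tested. The gene called was Mlxipl, which encodes the sugar-responsive factor ChREBP, at 0.728 ± 0.0646 against 4.29 ± 0.439 CPM (log2 fold change -2.55 ± 0.18, adjusted p = 5.1e-10, edgeR). Mlx, the Max-like partner, stood at 30.6 ± 2.03 against 29.5 ± 0.238 CPM (adjusted p = 0.484) and Mlxip, which encodes MondoA, at 17.6 ± 1.02 against 16.9 ± 0.542 CPM (adjusted p = 0.544).

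Among 12 genes of PRC1.6, the Polycomb complex built on Mga, 1 was higher and 6 lower, with a median of -0.11. The share called, 58.3%, was near the 61.4% of all genes tested. Wdr5, which encodes an adaptor also found in histone H3 lysine methyltransferases, stood at 216 ± 7.13 against 439 ± 4.75 CPM (-1.02 ± 0.04), and Rnf2, the ubiquitin ligase of the complex, at 116 ± 7.45 against 186 ± 7.73 CPM (-0.68 ± 0.05). The deacetylase gene Hdac2 differed by -0.57 ± 0.04 and Cbx3, a reader of methylated histone H3, by 0.27 ± 0.04. The DNA-binding subunit E2f6 stood at 19.5 ± 1.14 against 22.0 ± 0.178 CPM (adjusted p = 0.0224, edgeR), a call lost in 5 of 13 alternatives with adjusted p up to 0.113. The ring finger subunit Pcgf6 and the chromatin reader L3mbtl2 did not pass the test, with Pcgf6 at 95.6 ± 4.17 against 96.8 ± 2.65 CPM and L3mbtl2 at 226 ± 9.17 against 229.9 ± 8.87 CPM (adjusted p = 0.710 and 0.639).

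Genes of the germline that Max and Mga are known to hold down in mouse ESCs moved both ways. Of 12 listed, 11 were tested, 6 were higher and 4 lower, with a median of 0.45, and Tex101 was below the filter. Calls made up 90.9% of those tested, against 61.4% of all genes tested. Ddx4, a germ cell RNA helicase gene, stood at 14.6 ± 0.342 against 4.39 ± 0.108 CPM (1.74 ± 0.09) and Sycp1, of the synaptonemal complex of meiosis, at 20.5 ± 1.04 against 7.93 ± 0.386 CPM (1.37 ± 0.08). Dazl, which encodes an RNA-binding protein, was lower at 7.63 ± 1.20 against 146 ± 1.44 CPM (-4.27 ± 0.07), and so was the kinase-like gene Stk31 at 8.51 ± 1.08 against 22.7 ± 1.28 CPM (-1.42 ± 0.09).

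Mxd proteins and Mnt act through corepressors. Of 16 genes of the Sin3 and NCoR complexes 6 were higher and 3 lower, and 0 of them by 2-fold or more, with a median of 0.07. Over all genes tested 61.4% were called, near the 56.2% here, and 21.2% were called at 2-fold or more. Sin3a, the scaffold that Mxd proteins bind, stood at 206 ± 5.24 against 182 ± 1.23 CPM (0.17 ± 0.04, adjusted p = 0.000618, edgeR) and its paralog Sin3b at 153 ± 1.35 against 161 ± 7.38 CPM (adjusted p = 0.146). Sin3b was called as lower without 2i replicate 3 (-0.10, adjusted p = 0.0211). Sap30 differed by 0.29 ± 0.05 and Arid4b by 0.24 ± 0.04, both subunits of the Sin3 complex. The X-linked histone chaperone gene Rbbp7 was lower at -0.87 ± 0.04, beside the median of -0.78 over X-linked genes, and Hdac2, also in this list, at -0.57 ± 0.04.

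Of 13 coactivators and cofactors of Myc, 5 were higher and 8 lower, with a median of -0.18 and 1 gene, Wdr5, past 2-fold. Thus 100% were called, against 61.4% of all genes tested, of which 21.2% were called at 2-fold or more. Trrap, the scaffold through which Myc brings histone acetyltransferases, stood at 167 ± 3.21 against 198 ± 4.54 CPM (-0.24 ± 0.04). Kat5, the acetyltransferase Tip60, differed by 0.34 ± 0.05 and the ATPase gene Ruvbl1 by 0.31 ± 0.04. Cdk9, the kinase that releases paused RNA polymerase, differed by -0.43 ± 0.05 and Zbtb17, the Miz1 partner through which Myc lowers genes, by -0.38 ± 0.06.

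Of 16 genes that control the stability of the Myc protein, 4 were higher and 6 lower, with a median of -0.05. Called genes were 62.5% of this list, near the 61.4% of all genes tested. Fbxw7, which encodes the ubiquitin ligase subunit that reads the GSK3 mark on Myc, stood at 90.7 ± 1.20 against 94.98 ± 3.16 CPM and did not pass the test (-0.07 ± 0.04, adjusted p = 0.184, edgeR). Skp2, another ligase subunit for Myc, stood at 100.2 ± 6.35 against 56.7 ± 1.15 CPM (0.82 ± 0.05), and Usp28, which removes ubiquitin from Myc, at 164 ± 0.944 against 114.5 ± 2.74 CPM (0.52 ± 0.04). Aurka, a kinase that protects the Mycn protein from Fbxw7, differed by -0.43 ± 0.05. The X-linked ligase gene Huwe1 differed by -0.70 ± 0.04, beside the X-linked median of -0.78.

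Genes known to be raised by Myc moved in both directions. Of 32 listed, 14 were higher and 9 lower, with 0 past 2-fold, and the median log2 fold change was 0.05 against 0.0 over all genes tested. Calls made up 71.9% of the list, against 61.4% of all genes tested, of which 21.2% were called at 2-fold or more. Ncl, which encodes the nucleolar protein nucleolin, stood at 694 ± 13.6 against 562 ± 9.09 CPM (0.30 ± 0.04, adjusted p = 1.6e-06, edgeR) and Nop58, a core protein of box C/D small nucleolar particles, at 481 ± 12.5 against 395 ± 5.83 CPM. Odc1, the first enzyme of polyamine synthesis, stood at 774 ± 22.7 against 728 ± 37.8 CPM without passing the test (adjusted p = 0.0984), and was called in 3 of 13 alternatives with adjusted p down to 0.00167. Tfrc, the transferrin receptor gene, stood at 462 ± 8.59 against 821 ± 18.8 CPM (-0.83 ± 0.04), Ldha, a lactate dehydrogenase gene, at 450.0 ± 11.0 against 781 ± 15.5 CPM (-0.80 ± 0.04) and Tert, the telomerase catalytic subunit, at 15.0 ± 1.09 against 25.2 ± 0.682 CPM (-0.75 ± 0.07).

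Of 7 genes known to be lowered by Myc, 2 were higher and 1 lower (42.9% called, against 61.4% of all genes tested), with a median of 0.04. The cell cycle inhibitor gene Cdkn1b stood at 55.1 ± 2.16 against 27.7 ± 0.734 CPM (0.99 ± 0.05, adjusted p = 5.05e-12, edgeR), and Ndrg1, a stress and differentiation gene, at 57.4 ± 5.21 against 25.6 ± 0.426 CPM (1.17 ± 0.06). Cdkn1a, the inhibitor p21, was lower at 35.7 ± 3.12 against 44.1 ± 1.82 CPM (-0.31 ± 0.06).

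**Figure D4:**
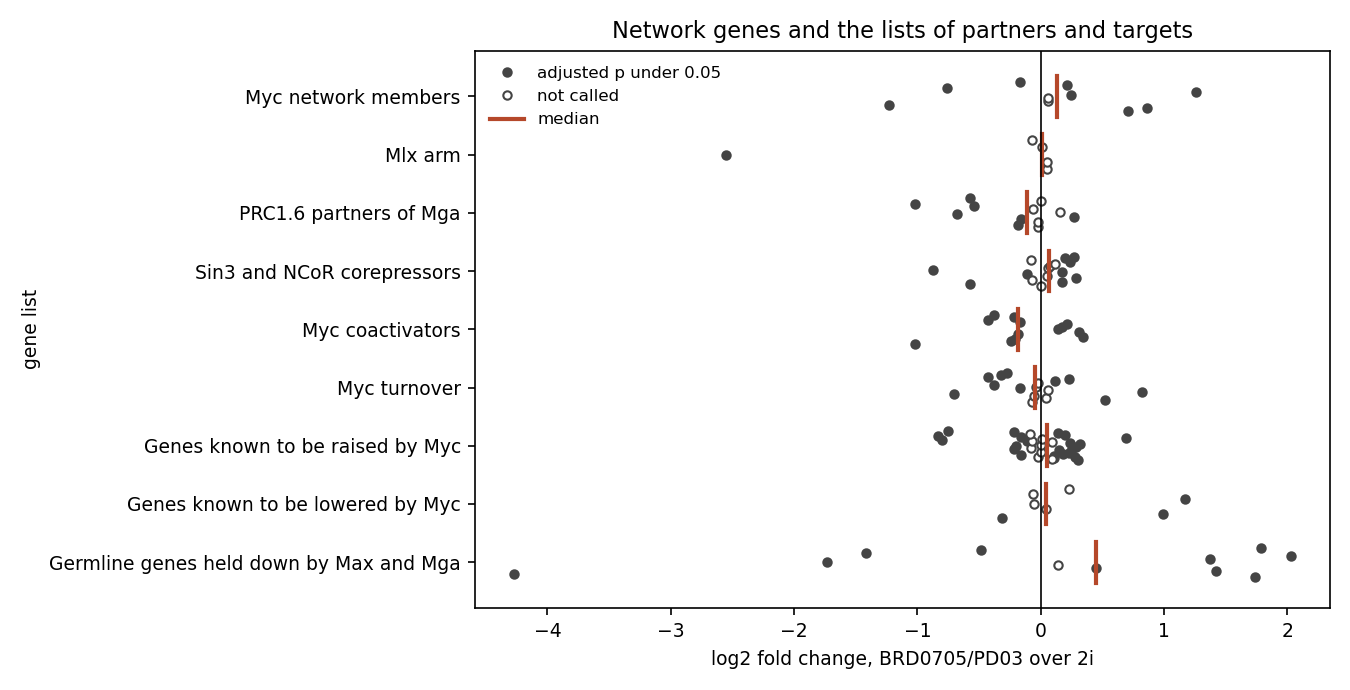
Log2 fold change of BRD0705/PD03 over 2i for each tested gene of the network and of 8 lists of partners and targets. Filled points passed an adjusted p of 0.05, open points did not, and red bars are medians, which lie between -0.18 and 0.45.

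The genes with the most similar pattern were found by Pearson correlation of log2 CPM over the 6 libraries. It covered the 10252 genes whose mean reached 5 CPM, after gene models without a name were left out. The 6 points fall into the 2 media, so a high value mostly shows a like difference between media, and it is given as a description. For Mycn the highest were Ppm1h (0.9999), Irs1 (0.9998) and Snn (0.9997), and 656 genes were above 0.99. For Mycl they were the X-linked Phka2 (0.9999), Myo5c (0.9999) and Pip4k2c (0.99985), with 1150 genes above 0.99. For Myc they were Rnf6 (0.9946), Brpf3 (0.9935) and Rad52 (0.9919), and 8 genes were above 0.99.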

How the data were processed

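The 6 libraries of mouse ESCs were made with a ribosomal RNA depletion kit, per the labels' protocols. The authors deposited whole numbers per gene symbol, taken here as rounded estimated counts, because the submitters' processing notes name Salmon, with the build mm10. No source used here gives the annotation or strand setting, and estimated counts divide reads among copies of a gene. Groups and replicate numbers came from titles. Whether replicates were separate cultures is not said, so a p-value speaks of these libraries' spread alone, and that may be technical. Within groups, chi-square per degree of freedom over genes with at least 20 counts was 2.77 to 9.84, so no pair matched within sampling noise. Replicate numbers did not pair the libraries.

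Differences were tested in edgeR 4.0.16 under R 4.3.3 (filterByExpr, TMM scaling, robust quasi-likelihood test, group as the only term), two-sided, with a threshold of 0.05 on p-values adjusted by Benjamini-Hochberg over all genes tested. Standard errors are the log2 fold change over the square root of F. CPM use effective library sizes. Positions and exon lengths came from GENCODE M21 on GRCm38, the assembly also called mm10, matched by symbol. The steps were tested on simulated data. The network genes and the lists were chosen with earlier results of these data known. Genes were named by a rule: the 10 network genes, 14 others whatever their values, up to 4 more called genes of each list with the smallest p, and 3 most similar genes for each Myc paralog. It named 69 genes. The marker genes it named, except Lama1, Col4a1, Foxa2 and Dab2, are given only as sums and counts. Genes named outside the rule were Bmyc, Tex101, Txnip, Arrdc4, Pdgfra, Sparc, Gata4, the Y-linked genes and those that overlap a network gene. Alternatives tried were another length per gene, a block for replicate number, DESeq2 1.42.0, other filters and scaling factors (upper-quartile, median-ratio), omission of X-linked and Y-linked genes, and each library left out in turn.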

Additional observations from a re-analysis of the deposited data

How the results depend on the processing

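Over 13 alternative settings the 10 network genes gave 130 values, 0 of them with a changed sign. Of these, 121 kept their side of the threshold, 8 lost a call, all of Mxd3, and 1 gained one, Max with upper-quartile factors. Mxd3 lost its call in DESeq2, without a filter, without genes of chromosomes X and Y, with the replicate block (0.24, adjusted p = 0.0598), and without BRD0705/PD03 replicate 1 or 3 or 2i replicate 1 or 3. With the replicate block 4 network genes were higher and 3 lower, and 6059 genes of all were higher and 6376 lower. The numbers are not taken as pairs, because deviations of same-numbered libraries correlated at only -0.06, 0.08 and -0.07. Small values changed sign. Pcgf6 was at 0.045 with upper-quartile factors and 0.002 both with no filter and with a floor of 1 CPM on the mean, and ranged from -0.055 to 0.008 when a library was left out. L3mbtl2 was at 0.04 with upper-quartile factors and ranged from -0.057 to 0.009, and Mlx from -0.002 to 0.095. With the longest transcript in place of merged exons, the Mycn share was 91.1% in BRD0705/PD03 and the Mycl share 4.42% in BRD0705/PD03 and 16.4% in 2i, and the Mycn share in 2i moved by less than its SD. Depth limits the genes of low level, and the fewest counts of a network gene in a library were 78, for Myc and for Mxd4, both in 2i replicate 1.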
